A study of Macaca mulatta with 2 samples.

Results

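Levels of 9 interferon-stimulated effector genes (IFIT1, IFIT2, IFIT3, ISG15, MX1, IFI6, IFI27, IFI44 and HERC6) were measured layer by layer in posterior eyecup sections of 2 rhesus macaques. Each symbol matched 1 of the 26533 genes of the reference, so all 9 were measured. The genes were picked by name because, in the inner retina, their levels in one animal (NHP2) were far above those in the other. Differences between the animals in these genes are therefore given as descriptions. The same holds for the standing of inner retina among the layers of NHP2. Each value is the number of unique molecular identifiers (UMIs, one per captured RNA molecule) of a gene per 10000 UMIs of all genes in the same spots.

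The design held 1 Visium section per animal, cut at 10 µm from a 4 mm punch of the right eye outside the treated blebs. NHP1 (male, 5 years) had received AAV2-CAG-hRPE65 under the retina of both eyes. In NHP2 (male, 6 years) each eye had received AAV8-GRK1-hRPGR (a codon-optimized human RPGR) and AAV8-GRK1-mScarlet in separate blebs. The GRK1 promoter drives expression in photoreceptors, and the CAG promoter is active in most cell types. Both samples are labelled uninjected, yet each came from an eye that was injected elsewhere, and all eyes had undergone vitrectomy and received 40 mg of triamcinolone, a corticosteroid, beneath Tenon's capsule. Tissue was taken at 12 weeks. Animal, vector, age, section and depth cannot be told apart here, no test between the animals was possible, and no p-value is given. The 95% intervals cover counting error only, and spots of 1 section are not replicates.

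Interferons are secreted when cells sense viral nucleic acid. Type I and type III interferons act through receptors and the kinases JAK1 and TYK2 on STAT proteins such as STAT2, which join IRF9 in a complex that enters the nucleus and binds the interferon-stimulated response element in the promoters of effector genes. The effectors bind foreign RNA, trap viral particles, modify proteins or alter membranes, and they are widely used as a readout of interferon signalling, also in the retina, where neurons, Müller glia and microglia can all respond.

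The 9 genes lie on 5 chromosomes of the rhesus genome build Mmul_10, and IFIT1, IFIT2 and IFIT3 are neighbours on the plus strand of chromosome 9 (IFIT2 at chr9:89563460-89570421, IFIT3 at chr9:89585075-89596574, IFIT1 at chr9:89628584-89669645). ISG15 (chr1:223403948-223405102, minus strand), IFI6 (chr1:197051586-197057742, plus strand) and IFI44 (chr1:145749495-145763682, minus strand) are on chromosome 1. MX1 is at chr3:5189230-5224218 on the minus strand, HERC6 at chr5:86766549-86831344 on the plus strand and IFI27 at chr7:156289053-156295024 on the plus strand. In the RefSeq annotation IFIT1 overlaps 2 other gene models on its strand, and HERC6 overlaps an antisense model. The counts were made with Ensembl gene models, and whether these overlaps touch the counts was not tested. The core letters of the response element, GAAA, then any 2 bases, then GAAA again, on either strand, occur in the 250 bases before the annotated start of 5 of the 9 genes. Of all 20769 RefSeq promoters of that length, 3.03% hold the letters. The stretches around the matches are shown because they hold the core letters of the element, with the matched letters in capitals and each read 5′ to 3′ on its gene's strand. This is a match of letters only, and binding was not measured. They are IFIT2 at chr9:89563390-89563459 (plus), ISG15 at chr1:223405156-223405225 (minus), IFI6 at chr1:197051498-197051567 (plus), IFI27 at chr7:156288919-156288988 (plus) and IFI44 at chr1:145763683-145763747 (minus).
IFIT2: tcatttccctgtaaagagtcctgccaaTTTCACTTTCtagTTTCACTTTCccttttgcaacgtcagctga
ISG15: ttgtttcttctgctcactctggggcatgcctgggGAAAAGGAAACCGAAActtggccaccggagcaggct
IFI6: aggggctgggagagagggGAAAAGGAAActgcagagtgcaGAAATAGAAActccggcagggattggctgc
IFI27: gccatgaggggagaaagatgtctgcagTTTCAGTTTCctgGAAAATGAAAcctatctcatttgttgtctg
IFI44: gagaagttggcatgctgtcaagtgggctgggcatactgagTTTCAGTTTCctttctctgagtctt
IFIT2 carries 2 copies read on the opposite strand (TTTC, any 2 bases, TTTC), ISG15 carries 2 that overlap, IFI27 carries 1 on each strand, and IFI6 has 4 matches in its window, of which 2 are shown. The stretch nearest the start ends 15 bases from it in IFI44, 20 in IFIT2, 38 in IFI6, 73 in ISG15 and 84 in IFI27. For IFIT1, IFIT3, MX1 and HERC6 these letters were not found in this window.

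The NHP1 section had 534 spots over tissue with 1484784 UMIs in all (median 1473.5 per spot), and the NHP2 section had 470 spots with 805726 UMIs (median 370.5), 4 of them without a UMI. A Visium spot is 55 µm across and can hold several cells of different types. Spots were clustered without the 9 genes or any other interferon gene, and clusters took a layer name from marker genes. Photoreceptor markers stood at 311 per 10000 UMIs in the photoreceptor spots of NHP1 and at 315 in those of NHP2, and scleral markers at 357 and 719 in the scleral spots, so these layers were present in both. NHP1 gave 131 photoreceptor, 178 inner retina, 94 choroid and 131 sclera spots. In NHP2 there were 40 photoreceptor, 34 inner retina and 172 sclera spots, and 220 spots stayed unnamed (median 153.5 UMIs). No cluster met the naming rule for retinal pigment epithelium (RPE) in either section, and none did for choroid in NHP2. The photoreceptor cluster of NHP2 was mixed, with BEST1, an RPE marker, and OPN1LW, a cone marker, among its 10 leading genes and RPE markers at 160 per 10000, against 39.2 in the photoreceptor spots of NHP1. The choroid spots of NHP1 were mixed as well, with RPE markers at 243 and choroid markers at 76.5 per 10000. RPE in both sections and choroid in NHP2 were therefore read from spots classed one by one by their markers, which gave 54 and 35 RPE spots and, in NHP2, 66 choroid spots. These are the same tissue spots sorted another way and overlap the clusters. The sections share 67 tissue positions of the array grid, since every slide carries the same barcodes.

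Summed over all tissue spots, the 9 genes held 294 UMIs in NHP1, or 1.98 per 10000 (1.76 to 2.22), and 3538 UMIs in NHP2, or 43.9 per 10000 (42.5 to 45.4). In spots that hold several cells, more positive cells and more RNA per cell cannot be told apart. In NHP1 the summed level was 1.03 per 10000 in photoreceptor spots (0.744 to 1.38), 1.98 in inner retina (1.68 to 2.32), 2.94 in choroid (2.20 to 3.85) and 4.22 in sclera (3.04 to 5.70). In NHP2 it was 21.4 in photoreceptor spots (19.3 to 23.6), 66.5 in inner retina (64.1 to 69.0), 12.9 in sclera (11.1 to 14.9) and 21.7 in the unnamed spots (17.8 to 26.2). Array spots off tissue also held member UMIs, at 35.9 per 10000 in NHP2 (31.8 to 40.4) and 2.05 in NHP1 (1.68 to 2.47), and the part of such RNA in the layer levels was not tested. Inner retina was thus the highest of the named layers in NHP2 and sclera the lowest. The genes were chosen on their inner retina level in NHP2, so its place in that order is a description. In NHP1 sclera and choroid had the highest values, with intervals that overlap each other. The spots classed one by one put RPE at 2.05 (1.33 to 3.02) and choroid at 3.45 (2.56 to 4.57) in NHP1. In NHP2 they gave 20.9 for RPE (17.4 to 24.9) and 17.7 for choroid (14.0 to 21.9), whose intervals overlap. This classing moved 1 other NHP2 layer by over 1.5 times, with photoreceptor spots at 35.7 per 10000 in place of 21.4, still below inner retina at 67.2. The tissue pieces of NHP2 differed, since 3396 of its 3538 member UMIs came from the 231-spot piece, at 47.8 per 10000 (46.2 to 49.4), and the 236-spot piece, which holds no inner retina spots, was at 15 (12.7 to 17.7). In NHP1 the 255-spot piece was at 2.64 (2.16 to 3.20).

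**Figure D1:**
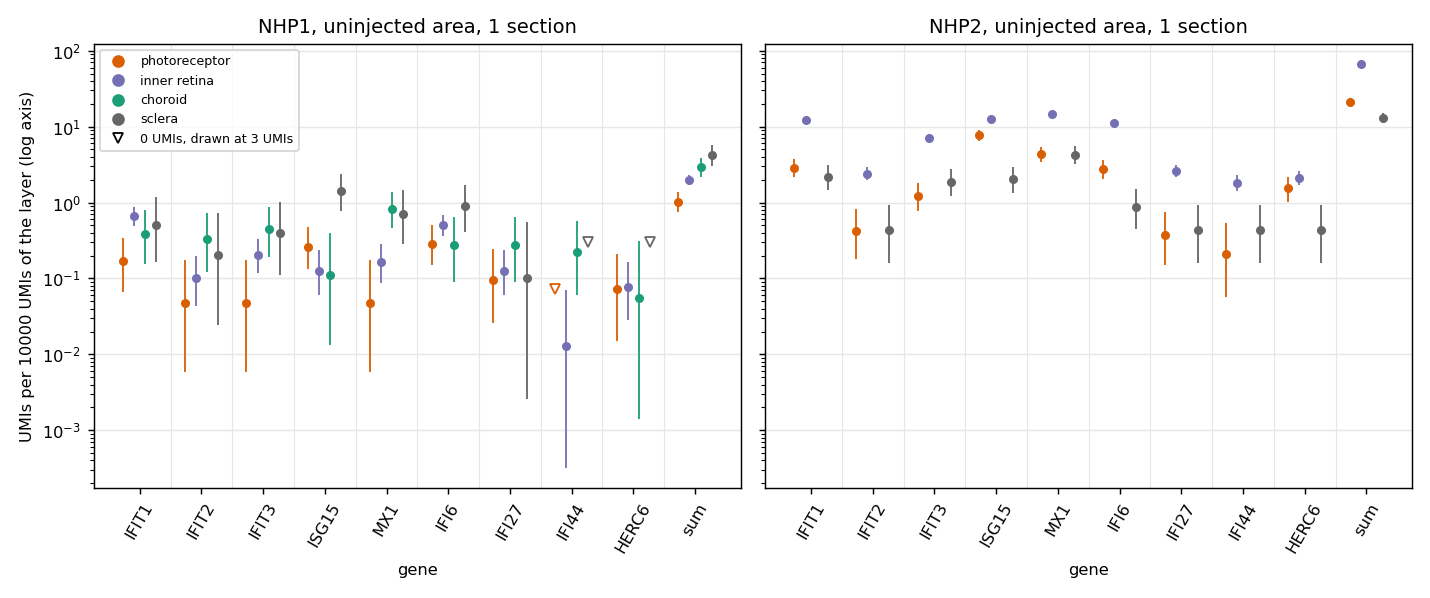
Level of each gene in UMIs per 10000 UMIs (log axis) by layer in NHP1 and NHP2, with exact Poisson 95% intervals. Layers are the named clusters, and an open triangle marks a gene without a UMI, drawn at the level of 3 UMIs. The 9 genes sit highest in the inner retina of NHP2, between 1.82 and 14.6 per 10000.

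Within NHP1 the ratio of inner retina to sclera was 0.470 (0.333 to 0.678), and within NHP2 it was 5.17 (4.44 to 6.04). The NHP2 ratio uses the inner retina values that chose the genes and is a description. The NHP1 value rests on one place. At the upper end of the longer scleral strip, 27 spots held 25 of the 42 member UMIs of the NHP1 sclera, 14.4 per 10000 (9.35 to 21.3), and the other 104 scleral spots held 17, or 2.07 per 10000 (1.20 to 3.31). Without those 27 spots the NHP1 ratio was 0.960 (0.580 to 1.69). ISG15 gave 13 of the 25 UMIs there, from 10 of the 27 spots, against 1 UMI in the other 104. The place was noticed on the map of values, so this is a description. Scleral markers were at 745 per 10000 there and 276 in the rest of the sclera, mononuclear phagocyte markers at 13.3 (8.42 to 19.9) and 8.15 (6.31 to 10.3), photoreceptor markers at 14.4 and 105, and median depth at 583 and 532 UMIs. Their part in the ISG15 level was not tested. The scleral spots of the 255-spot tissue piece that holds this end averaged 6.67 per 10000, those of the 228-spot piece 1.32, and in the latter the ratio of inner retina to sclera was 1.55 (0.692 to 4.30).

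**Figure D2:**
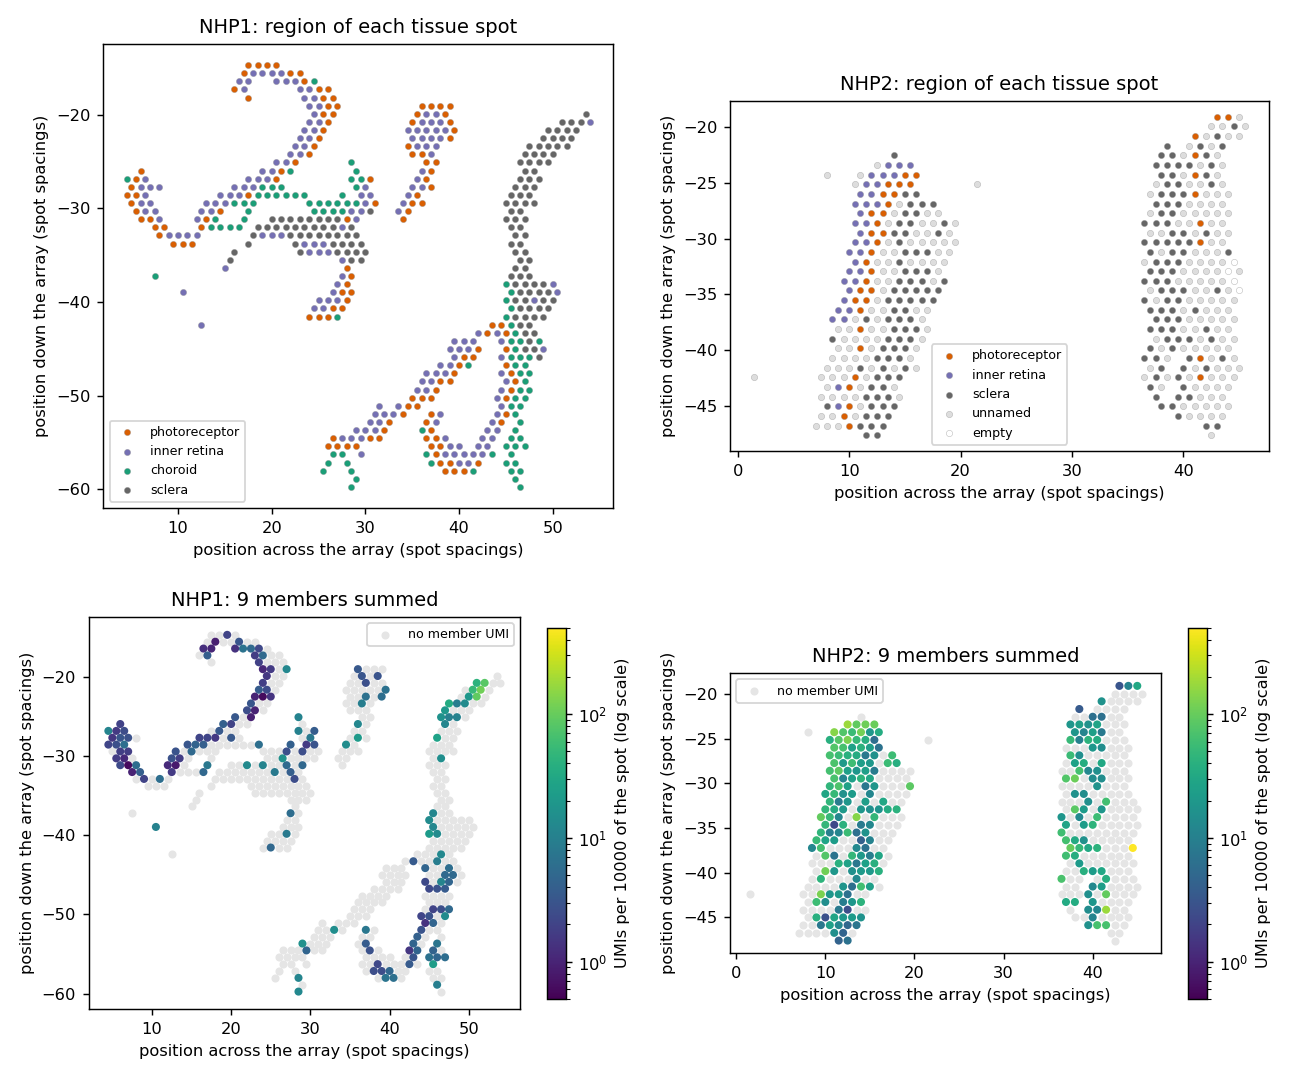
Summed level of the 9 genes in UMIs per 10000 UMIs in every tissue spot, at its array position, for NHP1 and NHP2, with the spots of each layer. In NHP2 spots with member UMIs line the inner retina and recur over the second tissue piece, while in NHP1 the spots at the upper end of the longer scleral strip stand out.

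IFIT1 encodes a protein that binds viral RNA lacking the host's cap methylation, and IFIT2 and IFIT3 encode partners that join it in complexes. IFIT1 in NHP1 gave 7 UMIs in photoreceptor spots (0.167 per 10000), 52 in inner retina (0.661), 7 in choroid (0.388) and 5 in sclera (0.502). In NHP2 it gave 54 UMIs in photoreceptor spots (2.85 per 10000), 524 in inner retina (12.2) and 30 in sclera (2.16). Inner retina exceeded photoreceptor spots by a factor of 3.95 in NHP1 (1.79 to 10.3) and 4.29 in NHP2 (3.24 to 5.79). Of the 9 genes IFIT1 had the most UMIs in the NHP1 inner retina. Its levels in NHP2 photoreceptor spots and sclera have overlapping intervals by clusters, whereas with spots classed one by one photoreceptor spots were at 2.66 times sclera (1.76 to 4.14).

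IFIT2 was sparse in NHP1, with 2 UMIs in photoreceptor spots (0.0478 per 10000), 8 in inner retina (0.102), 6 in choroid (0.333) and 2 in sclera (0.201). In NHP2 its level was 0.422 per 10000 in photoreceptor spots (8 UMIs), 2.41 in inner retina (103 UMIs) and 0.432 in sclera (6 UMIs), so inner retina stood above both other layers. IFIT3 gave 2, 16, 8 and 4 UMIs in photoreceptor, inner retina, choroid and sclera spots of NHP1, or 0.0478, 0.203, 0.444 and 0.402 per 10000. In NHP2 IFIT3 was at 1.21 per 10000 in photoreceptor spots (23 UMIs), 7.08 in inner retina (303 UMIs) and 1.87 in sclera (26 UMIs). For all 3 IFIT genes inner retina was thus the highest layer in NHP2, at 4.29 to 5.83 times the photoreceptor level and 3.79 to 5.67 times the scleral level. The lower bounds of the 6 intervals lie between 2.48 and 3.93. With spots classed one by one the ratios of inner retina to photoreceptor were smaller, 2.12 for IFIT1 (1.72 to 2.62), 2.67 for IFIT2 (1.59 to 4.70) and 2.52 for IFIT3 (1.88 to 3.43).

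MX1 encodes a dynamin-like GTPase that blocks incoming viral ribonucleoprotein. In NHP1 it gave 2 UMIs in photoreceptor spots (0.0478 per 10000), 13 in inner retina (0.165), 15 in choroid (0.832) and 7 in sclera (0.703). Choroid was the layer with the most MX1, with inner retina at 0.199 times its level (0.0870 to 0.447), and choroid and sclera did not separate (ratio 1.18, 0.454 to 3.43). In NHP2 MX1 was at 4.33 per 10000 in photoreceptor spots (82 UMIs), 14.6 in inner retina (623 UMIs) and 4.24 in sclera (59 UMIs), and inner retina was 3.43 times sclera (2.62 to 4.56). RPE and choroid spots of NHP2, classed one by one, stood at 5.06 (31 UMIs) and 5.60 (26 UMIs) per 10000. With photoreceptor and sclera taken from clusters, the 4 layers other than inner retina lay within 4.24 to 5.60 with overlapping intervals. With all spots classed one by one, however, photoreceptor spots were at 7.16 and sclera at 4.58, a ratio of 1.56 (1.15 to 2.15). MX1 was also the gene found in the most NHP2 tissue spots, 126 of 470.

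ISG15 encodes a ubiquitin-like protein that is attached to other proteins and also secreted. In NHP1 it gave 11 UMIs in photoreceptor spots (0.263 per 10000), 10 in inner retina (0.127), 2 in choroid (0.111) and 14 in sclera (1.41), of which 13 came from the end of the strip described above. The ratio of inner retina to sclera for ISG15 in NHP1 was 0.0904 (0.0359 to 0.219) and without that end 1.05 (0.149 to 45.4). In NHP2 ISG15 stood at 7.71 per 10000 in photoreceptor spots (146 UMIs), 12.5 in inner retina (537 UMIs) and 2.01 in sclera (28 UMIs). Photoreceptor spots came closer to inner retina for ISG15 than for the IFIT genes, with a ratio of inner retina to photoreceptor of 1.63 (1.35 to 1.97) by clusters and 1.09 (0.924 to 1.29) with spots classed one by one, and RPE spots of NHP2 were at 6.37 per 10000 (39 UMIs). None of the 54 RPE spots of NHP1 had an ISG15 UMI, which allows a level of up to 0.246 per 10000 (3 UMIs).

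HERC6 encodes a member of the HERC family of ubiquitin ligases, a family that also attaches ISG15 to proteins. Its 10 tissue UMIs in NHP1 were 3 in photoreceptor spots, 6 in inner retina and 1 in choroid, with none in sclera. In NHP2 it was at 1.53 per 10000 in photoreceptor spots (29 UMIs), 2.1 in inner retina (90 UMIs) and 0.432 in sclera (6 UMIs). HERC6 and ISG15 were the members with the smallest excess of inner retina over photoreceptor in NHP2, and for HERC6 the interval of that ratio included 1 (1.37, 0.895 to 2.17).

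IFI6 and IFI27 encode small related membrane proteins of the endoplasmic reticulum and mitochondria, and IFI44 encodes a cytoplasmic protein whose action is less well known. IFI6 in NHP1 gave 12 UMIs in photoreceptor spots (0.287 per 10000), 40 in inner retina (0.509), 5 in choroid (0.277) and 9 in sclera (0.904). In NHP2 IFI6 stood at 2.75 per 10000 in photoreceptor spots (52 UMIs), 11.1 in inner retina (477 UMIs) and 0.863 in sclera (12 UMIs). Its ratio of inner retina to sclera in NHP2, 12.9 (7.32 to 25.2), was the highest of the 9 genes by value, with an interval that overlaps that of ISG15 (6.23, 4.26 to 9.46), while in NHP1 the same ratio was 0.563 (0.269 to 1.32).

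IFI27 gave 4, 10, 5 and 1 UMIs in the photoreceptor, inner retina, choroid and sclera spots of NHP1. In NHP2 it was at 0.370 per 10000 in photoreceptor spots (7 UMIs), 2.62 in inner retina (112 UMIs) and 0.432 in sclera (6 UMIs), and 0 of its UMIs fell in the 35 RPE spots, which allows up to 0.490 per 10000. IFI44 was the rarest member in NHP1, with 5 tissue UMIs, 4 of them in choroid and 1 in inner retina. In NHP2 it was at 0.211 per 10000 in photoreceptor spots (4 UMIs), 1.82 in inner retina (78 UMIs) and 0.432 in sclera (6 UMIs). By clusters the photoreceptor and scleral levels of IFI27 and IFI44 in NHP2 did not separate, and inner retina stood clear of both. With spots classed one by one, IFI27 in photoreceptor spots was at 2.82 times sclera (1.03 to 9.56), and IFI44 in inner retina was at 1.36 times photoreceptor spots (0.826 to 2.31), an interval that includes 1.

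Among genes with at least 50 UMIs in the compared layers, all 9 members had an inner retina level of 2 or more times the scleral level in NHP2, where 36.6% of all 2433 genes did and the median ratio of all genes was 1.52. All members but MX1, with 59 UMIs in sclera, were under 50 UMIs there and met the minimum through their inner retina UMIs. IFI44, HERC6, IFIT2 and IFI27 had 6 UMIs each in sclera. Nothing is therefore read from that count. In NHP1 only IFIT1 had enough UMIs for that comparison, and its ratio of 1.32 was below 2, where 23.2% of genes reached it. For inner retina over photoreceptor, 7 of 9 members reached 2 in NHP2, all but ISG15 and HERC6, against 12.8% of all genes. In NHP1 1 of 2 did, IFIT1, against 10.4%. IFIT2, IFIT3, IFI27, IFI44 and HERC6 in NHP2 and IFIT1 in NHP1 met this minimum through their inner retina UMIs. Nothing is read from these counts either. The spots classed one by one gave a smaller summed ratio of inner retina to photoreceptor in NHP2, 1.88 (1.73 to 2.05) against 3.11 (2.80 to 3.46) by clusters. IFI44 was then also below 2, at 1.36.

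**Figure D3:**
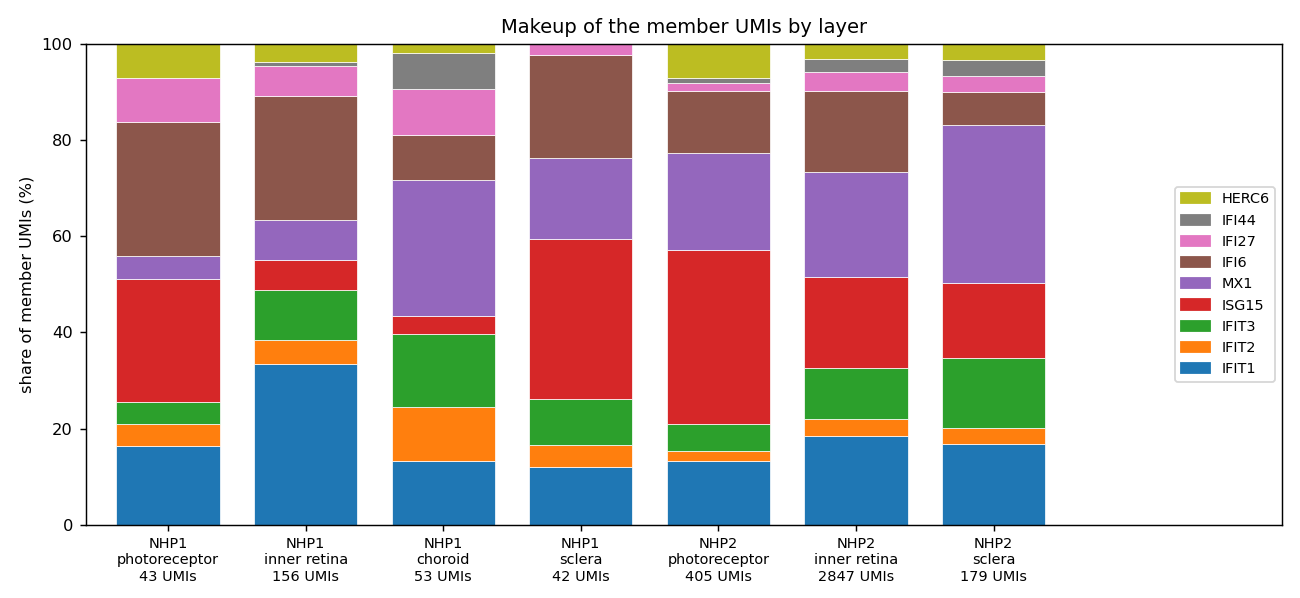
Share of each gene in the summed UMIs of the 9 genes (percent) by layer in NHP1 and NHP2. ISG15 takes 36.0% of the total in NHP2 photoreceptor spots and 18.9% in NHP2 inner retina.

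The makeup of the summed signal differed between layers, as the plot of shares by layer shows. A UMI marks a captured 3′ end and is not scaled by transcript length, and capture can differ between genes, so these are shares of captured molecules. ISG15 made up 36.0% of member UMIs in NHP2 photoreceptor spots (31.4 to 40.9) and 18.9% in inner retina (17.4 to 20.3), and in NHP1 25.6% and 6.41%. With spots classed one by one the shares were 30.8% and 17.8% in NHP2 and 23.1% and 6.30% in NHP1, so ISG15 had the higher share in photoreceptor spots in both sections and by both ways of naming layers. MX1 made up 33.0% in NHP2 sclera (26.1 to 40.4) against 21.9% in inner retina (20.4 to 23.4), while IFI6 made up 6.70% in sclera (3.51 to 11.4) against 16.8% (15.4 to 18.2). In NHP1 the leading gene was IFIT1 in inner retina at 33.3% of 156 UMIs, MX1 in choroid at 28.3% of 53, and ISG15 in sclera at 33.3% of 42, the latter almost wholly from the end of the strip.

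A member UMI was found in 171 of 534 tissue spots of NHP1, 32.0% (28.1 to 36.2), and in 223 of 470 of NHP2, 47.4% (42.9 to 52.1). Single genes were found in 0.749% (IFI44) to 10.3% (IFIT1) of NHP1 spots and in 7.45% (IFI44) to 26.8% (MX1) of NHP2 spots. By layer, NHP1 had 26.0% of photoreceptor, 43.8% of inner retina, 34.0% of choroid and 20.6% of sclera spots positive. In NHP2 92.5% of photoreceptor, all 34 inner retina and 55.2% of sclera spots were positive. Off tissue 1.89% of 4284 spots were positive in NHP1 and 2.98% of 4027 were in NHP2, where the median spot held 4 UMIs of all genes (8 in NHP1).

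The share of positive spots follows depth, which differs between layers and sections, so each spot was also reduced by calculation to 500 UMIs, which kept 436 spots of NHP1 and 204 of NHP2 and left out the shallower ones. The expected positive share was then 10.3% in NHP1 and 62.2% in NHP2. Within NHP1 it became 4.37% in photoreceptor, 9.66% in inner retina, 13.1% in choroid and 18.7% in sclera spots, an order that follows the levels per 10000 and not the unreduced shares. The NHP1 scleral value rests on 70 spots. Of the 42 member UMIs in all NHP1 scleral spots, 25 came from the 27 spots at the end of the strip. In NHP2 the expected share was 56.1% in photoreceptor, 93.1% in inner retina and 50.8% in sclera spots. Leaving out shallow spots moves the shares by itself. Among spots of at least 200 UMIs, 33.6% in NHP1 and 69.6% in NHP2 were positive as measured, and the same spots reduced to 200 UMIs gave 4.59% and 32.6%.

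**Figure D4:**
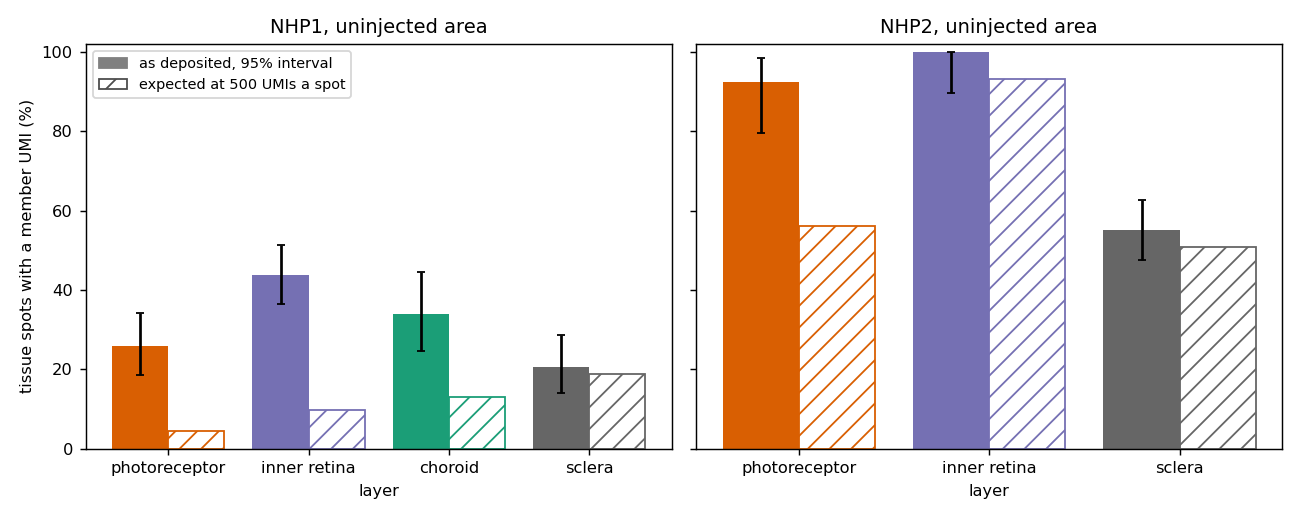
Share of spots with a UMI of any of the 9 genes (percent) by layer, measured (with exact Clopper-Pearson 95% intervals) and calculated for each spot reduced to 500 UMIs. NHP2 inner retina stays near the top on both measures, 100% and 93.1%, while in NHP1 sclera moves from the lowest share to the highest. In the NHP1 sclera 25 of 42 member UMIs came from 27 spots at the end of the longer strip.

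Among spots of at least 500 UMIs, the summed level in the 34 inner retina spots of NHP2 ran from 12.2 through a median of 60.2 to 125 per 10000. None of these spots was at 0. The photoreceptor spots of NHP2 ran from 0 through 16.2 to 94.0 and its scleral spots from 0 through 12.7 to 84.3, so single spots of all 3 layers overlap. In NHP1 the inner retina spots ran from 0 through 0.951 to 16.2, and the median was 0 in photoreceptor, choroid and sclera spots, with highest values of 12.1, 22.5 and 42.3. The lowest inner retina spots of NHP2 thus lay inside the range of NHP1. A median of 8 of the 9 genes (range 2 to 9) was found in an NHP2 inner retina spot, and all 9 were found in 14 of the 34, whereas no NHP1 spot held more than 4. The genes were chosen on this contrast between the animals. The number found also follows depth, which was not matched here (median 8098.5 UMIs in the NHP2 inner retina spots), so nothing is read from it.

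Between members, the correlation of levels over spots of at least 1000 UMIs had a median of 0.384 over the 36 gene pairs in NHP2 (0.188 to 0.623, 127 spots) and of 0.000307 in NHP1 (−0.0652 to 0.145, 324 spots). Members were found in 4 (IFI44) to 55 (IFIT1) of the 534 tissue spots of NHP1, so most spots were at 0, which can hold correlations near 0. Spots of 1 section share a library and layers, and the summed level itself correlated with spot depth at 0.446 in NHP2 and 0.0953 in NHP1. The deposited Moran's I, a measure of how alike neighbouring spots are, was 0.355 for ISG15 in NHP1, rank 31 of 13804 genes, with the other 8 members at rank 1522 or beyond. In NHP2 it was highest for IFI6 at 0.219 (rank 33 of 12542 genes) and ISG15 at 0.188 (rank 59). ISG15 was thus the only member near the top of both lists.

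The genes whose level over spots was most like the summed level in NHP2 were PVALB (r = 0.621), FABP5 (0.575), TF (0.567), DAPL1 (0.560) and PCP2 (0.553), out of 3453 genes over 127 spots. PVALB encodes a calcium-binding protein of inner retinal neurons, and PCP2 marks bipolar cells. In NHP1 the closest were TSC22D3 (0.313), a glucocorticoid-induced gene, TSKU (0.277), ABHD12 (0.269), APOE (0.265) and ACTB (0.257), out of 5311 genes over 324 spots. No gene of the interferon pathway lists was among these 10.

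Between the animals, the inner retina of NHP2 over that of NHP1 is the contrast that chose the genes, and nothing is read from it. The summed ratio there was 33.5 (28.5 to 39.7), and single genes ran from 18.5 for IFIT1 (13.9 to 25.1) through 20.6 for IFI27, 21.9 for IFI6, 23.7 for IFIT2, 27.6 for HERC6, 34.8 for IFIT3, 88.1 for MX1 (51.1 to 166) and 98.7 for ISG15 (53.2 to 207) to 143 for IFI44, whose interval of 25.0 to 5733 reflects a single UMI in NHP1. All 9 were at 2 or more, where 2.03% of 4678 genes were. Among other genes the highest ratios were those of OAS3 at 19.5, which makes a signal that activates RNase L and lies inside the range of the members, the unnamed gene ENSMMUG00000013256 at 15.7 and DHX58, an RNA sensor, at 15.

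In photoreceptor spots, which come from the same libraries, the summed ratio was 20.8 by clusters (15.2 to 29.2). The 4 members with at least 50 UMIs there (IFIT1, ISG15, MX1 and IFI6) were all at 2 or more, against 4.25% of 2472 genes, but they met that minimum through their NHP2 UMIs, so nothing is read from it. With spots classed one by one the summed ratio was 33.0 in photoreceptor spots (24.9 to 44.7), beside 33.2 in inner retina, 10.2 in RPE spots (6.61 to 16.4), 5.11 in choroid spots (3.55 to 7.44) and 3.46 in sclera (2.45 to 4.98).

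In sclera the summed ratio was 3.05 (2.17 to 4.38), and without the end of the strip in NHP1 it was 6.23 (3.78 to 10.9). MX1 was the 1 member with at least 50 UMIs there (7 in NHP1 and 59 in NHP2), at 6.04 (2.75 to 15.7). Of 736 genes 14.4% were at 2 or more, but MX1 met the minimum through its NHP2 UMIs, so nothing is read from it. ISG15 was at 1.43 in sclera (0.729 to 2.94) but at 16.6 without that end (2.74 to 677), a value that rests on 1 UMI. IFI6 was at 0.955 (0.369 to 2.57) and without the end at 1.42 (0.466 to 5.14). IFIT1 and IFIT3 were at 4.30 (1.65 to 14.2) and 4.66 (1.61 to 18.4). The ratio of 33.5 in inner retina comes from the layer used to choose the genes, so nothing is read from its distance to the scleral ratios.

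Other genes of the pathway were read from lists ordered by role, with 85 genes in the reference. Of the 20 with at least 50 UMIs in inner retina, 15 were at 2 or more times the NHP1 level in NHP2 and none at 0.5 or less. Of all 4678 genes 2.03% were at 2 or more. The median ratio of the 20 was 3.32 where that of all genes was 1.02. These genes come from the same libraries as the contrast that chose the members. Most of the 15 met the minimum through NHP2 alone (OAS3 had 5 UMIs in NHP1 and 53 in NHP2). The count is thus partly set by that minimum, and nothing is read from it. No interferon ligand reached 50 UMIs, and 10 of the 11 in the reference had no tissue UMI in either section. The exception was IFNL1, a type III interferon, with 1 UMI in NHP1 and 4 in NHP2, all in inner retina.

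Of 3 receptor genes measured, 1 was at 2 or more. IFNAR1, a subunit of the type I receptor, had a ratio of 1.32 (0.807 to 2.15), IFNGR1 of 0.804 (0.457 to 1.37) and IFNGR2 of 2.56 (1.60 to 4.14), the last 2 being subunits of the interferon gamma receptor. Among the signalling genes 2 of the 5 measured were at 2 or more. IRF9, the DNA-binding partner in the nuclear complex, was at 11.9 (7.87 to 18.8) and STAT2 at 3.54 (2.38 to 5.32), while the kinase JAK1 was at 1.11 (0.801 to 1.53). In photoreceptor spots IRF9 was at 13.8 (7.46 to 27.9).

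The inhibitor USP18, which removes ISG15 from proteins and damps the receptor, had 2 UMIs in the NHP1 inner retina and 27 in that of NHP2, too few for the 50-UMI rule, and no inhibitor reached it. DHX58, the 1 sensor measured, was at 15 (8.56 to 28.2). All 7 other effectors measured were at 2 or more, from ADAR, an RNA-editing enzyme, at 2.13 through LGALS3BP at 6.49 and BST2, which tethers budding virus, at 9.95 to OAS3. All 4 measured MHC class I genes were too, against 2.03% of all 4678 genes. Among them were B2M, the light chain, at 7.24 (6.28 to 8.36), TAPBP, a peptide-loading chaperone, at 2.44 and PSMB8, an immunoproteasome subunit, at 14.7. DHX58, LGALS3BP, BST2, OAS3 and PSMB8 each had under 50 inner retina UMIs in NHP1 and met the minimum through NHP2. Nothing is therefore read from these counts. Of the chemokines and interferon gamma targets none was measured at this depth, with CXCL9, CXCL10 and CXCL11 at 0 UMIs and CCL2 at 1 and 13 UMIs in the inner retina of NHP1 and NHP2. In sclera only BST2, at 14.8 (4.84 to 73.7), and B2M, at 1.90 (1.57 to 2.30), had enough UMIs. BST2 met the minimum there through NHP2, with 3 UMIs in NHP1 and 62 in NHP2, so nothing is read from its ratio.

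**Figure D5:**
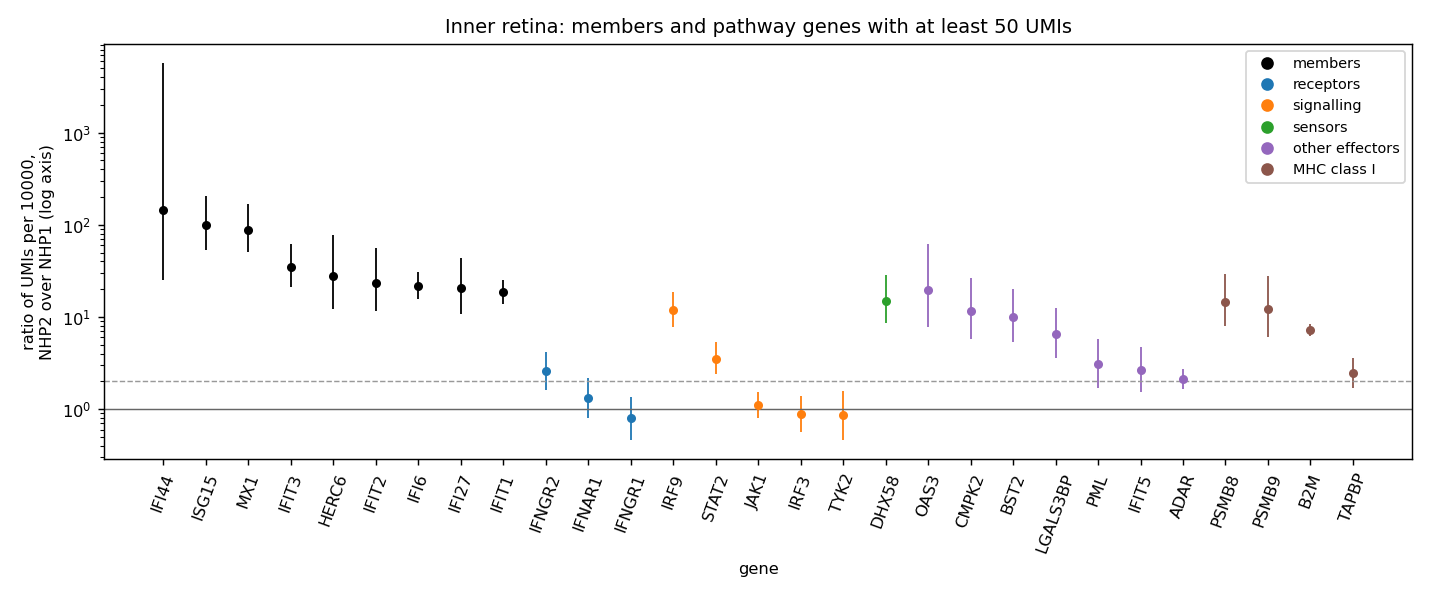
NHP2 over NHP1 ratio of levels in inner retina (log axis) for the 9 members and the measured pathway genes, grouped by role, with 95% counting intervals, a solid line at 1 and a dashed line at 2. IRF9 lies at 11.9 while JAK1 and IFNAR1 lie at 1.11 and 1.32.

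Markers of other cell types that a spot could hold were measured in the same layers. Mononuclear phagocyte markers, all 16 of which are in the reference, were summed to 1.30 per 10000 in the inner retina of NHP1 (1.06 to 1.57, 13 of 16 with a UMI, P2RY12, CX3CR1 and PTPRC at 0) and to 2.69 in that of NHP2 (2.22 to 3.23, 15 of 16 with a UMI, PTPRC at 0). In sclera they were at 9.04 and 9.35. T and NK cell markers gave 2 UMIs in the inner retina of each section, 1 in the sclera of NHP1 and 9 in that of NHP2, with CD3D and CD3E at 0 in all of these. Their part in the member levels was not tested. Inner retina markers in sclera, where spots should lack them, stood at 41.6 (NHP1) and 30.9 (NHP2) per 10000, and photoreceptor markers at 89.6 and 24.1, and their part in the scleral member levels was not tested.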

How the data were processed

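The deposited counts are raw UMI counts per gene and spot, which the authors made with Space Ranger 2.1.0 from 3′ polyA Visium libraries, using Mmul_10 with transgene sequences added. Moran's I is a score that Space Ranger wrote for each gene, used here as deposited. Columns of other series numbered 0. The members, marker lists and pathway lists were chosen with earlier results of these data known, and 1 pathway gene is not reported here. Named genes were all 9 members, the 3 genes with the most UMIs of each pathway list, and the 5 genes most correlated with the summed members in each section (OAS3 was named after its value was seen).

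Tissue spots of each section were scaled to 10000 UMIs, log-transformed and clustered (scanpy 1.11.5, leidenalg 0.10.2, 2000 variable genes, 20 components, 15 neighbours, resolution 1) with the members and pathway genes left out. A cluster took the layer with the most markers at 3 or more UMIs and 1.5 times the rest of the section, at least 3 markers. It stayed unnamed if more of its leading 10 genes marked another layer. It also stayed unnamed if its median UMIs were under 1/3 of the section's and no marker of the layer was among those 10. Summed UMIs have exact Poisson intervals, shares exact Clopper-Pearson intervals and ratios conditional binomial intervals (scipy 1.17.1), all at 95%. Ratios over all genes used genes with at least 50 UMIs and were tested on simulated data with known changes. A count of 0 was bounded by 3 counts of the layer's total. Doublet calling does not apply to spots. Depth was 1484784 UMIs in NHP1 and 805726 in NHP2 over tissue. Promoters are Mmul_10 RefSeq. Settings were changed one at a time, for 60 alternative values in all.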

Additional observations from a re-analysis of the deposited data

Results flagged for a closer look

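Member UMIs also appeared in array spots outside the tissue, which no comparison uses. NHP1 had 107 member UMIs in 4284 such spots, 2.05 per 10000 (1.68 to 2.47), and NHP2 had 276 in 4027 spots, 35.9 per 10000 (31.8 to 40.4). The off-tissue level per 10000 in NHP2 was 34.6 within 3 spot spacings of tissue and 40.1 farther away, so relative to all UMIs it did not fall with distance. Per spot the member UMIs did fall, from 0.370 within 3 spacings to 0.0204 farther away. Over all off-tissue spots of NHP2 there were 0.0685 member UMIs per spot, against 1.04 in its scleral spots and 83.7 in its inner retina spots. The off-tissue level per 10000 in NHP2 lay above that of its sclera (12.9) and photoreceptor spots (21.4), and the part of such RNA in the levels of those layers was not tested.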

How the results depend on the processing

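Of 60 alternative values, 35 stayed inside the counting interval of the reported value (or within 1.5 times the reported count), 24 moved out of it and 1 reversed. With a minimum of 2 UMIs, 14.2% of NHP1 and 28.7% of NHP2 spots were positive. Reduced to 500 UMIs per spot the shares were 10.3% and 62.2%, reduced to 200 they were 4.59% and 32.6%, and among NHP2 spots of at least 200 UMIs the share was 69.6%. Scaling without mitochondrial and the 50 most abundant genes gave summed levels of 2.43 (NHP1) and 52.5 (NHP2). Without MX1, the member with the most UMIs, they were 1.73 and 34.1, and the NHP2 share was 39.8%. At clustering resolution 0.5 the NHP2 inner retina to sclera ratio was 3.76 and the NHP2 to NHP1 inner retina ratio 26.1. In the tissue piece with the most spots the NHP1 inner retina to sclera ratio was 0.252, the NHP2 to NHP1 sclera ratio was 2.28, and NHP2 had no inner retina spots there, so its inner retina ratios were not run. The following 2 alternatives were chosen after seeing the data. The piece with the most UMIs gave 1.75 and 47.8 for the summed levels, 39.0% and 62.8% for the shares, 8.78 for the NHP2 to NHP1 sclera ratio and, reversed, 1.55 for the NHP1 inner retina to sclera ratio. Sclera of NHP1 without the upper end of the longer strip gave 0.960 for the latter and 6.23 for the NHP2 to NHP1 sclera ratio, so the order of sclera and inner retina in NHP1 rests on 27 spots. Pathway genes at 2 or more numbered 15 as reported, 2 with a minimum of 200 UMIs per gene and 28 with a minimum of 20, since fewer or more genes were measured. Otherwise the cause of a change was not tested. No paired analysis was possible because each animal gave 1 section. In NHP1 single genes rest on 5 to 71 tissue UMIs, which sets the width of their intervals, although that section is the deeper one.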
